A study of Mus musculus with 36 samples.

Results

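Fibroblasts from mouse embryos (strain C57BL/6J), a connective tissue cell type kept in culture, were compared after 2 h in medium of 700 mOsm and after the same stress followed by 2 h of recovery. The stress was made with sorbitol, a sugar alcohol that draws water out of cells. The comparison takes 8 of the 36 libraries of the series, chosen by their titles: 2 ribosome footprint and 2 cytoplasmic RNA libraries of each of the 2 conditions. The 4 libraries of unstressed cells are given beside them as the level before stress. The question is how cytoplasmic RNA and translation change over 2 h once the stress is removed.

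Ribosomes start on an mRNA, move along its coding sequence and leave at its end, and each protects the short stretch of mRNA it sits on. Footprint sequencing counts these protected stretches, so that a transcript's footprint level depends both on how much of its RNA is present and on how many ribosomes each copy carries. Hyperosmotic stress is known to shrink cells, to lower the initiation of translation and to change transcription, and cells released from it are known to take up translation again.

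Several plates of cells were treated per condition, and no genotype differed between groups. RNA was given as FPKM, the fragments per transcript scaled for transcript length and library total, and footprints as RPKM, the same for reads on the coding sequence. Levels below are scaled FPKM or scaled RPKM, meaning that each library was divided by 1 factor that aligns its typical abundant transcript with the other libraries. The factor was taken from transcripts listed in all 18 libraries of the assay, so transcripts unlisted in any of them did not enter it. Levels and shares of reads are thus relative, and total translation or total RNA per cell cannot be read from them. A change is the recovery value minus the stress value after taking log2(scaled value + 1), a scale on which changes of low transcripts come out too small. The deposited lists carry Ensembl transcript identifiers, of which 0 of 17478 matched the name tables used here, so that no gene names, marker genes or sequences are given and the labelled cell type could not be checked against its markers.

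The stress libraries were the shallowest of those compared. The footprint libraries held 734083 and 909760 reads in stress, 4623972 and 4628977 in recovery, and 7261234 and 7593983 in unstressed cells. The RNA libraries held 23257380 and 6851958 reads in stress, 31804857 and 35419823 in recovery, and 55262396 and 39748466 in unstressed cells. Between the 2 footprint libraries of a condition the reads varied hardly more than counting alone would give, with a chi-square per degree of freedom of 1.085 in stress and 1.011 in recovery. That check took transcripts listed in both libraries with at least 40 reads, 3602 in stress and 8661 in recovery. It left out those listed in 1 library only, 1255 in stress and 491 in recovery. Each footprint pair was averaged and counted as 1 sample. Footprint changes therefore have no replicate error and no test. The RNA pairs differed by more, at 22.973 and 4.595, and stayed at n = 2. Nothing in the labels says that the 2 RNA libraries of a condition came from separate cultures. The p-values therefore measure only the spread between libraries, and that spread may be technical.

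Cytoplasmic RNA changed widely over the 2 h, with many moderate rises, a small number of very large ones and falls that were mostly under 2-fold. Of 9275 transcripts tested, 3909 rose (42.1%) and 2233 fell (24.1%) by limma with Benjamini-Hochberg adjustment at 0.05, and 3133 did not pass. The median log2 change was 0.123, with quartiles of -0.213 and 0.528. At least 2-fold differences were mostly one way: at least 2-fold higher were 874 transcripts (9.42%), and 16 were lower by as much (0.173%). Both recovery libraries lay above both stress libraries in 4690 transcripts (50.6%) and below both in 3002 (32.4%). The libraries are from bulk cultures, so that fewer cells carrying a transcript and less of it per cell cannot be told apart.

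**Figure D1:**
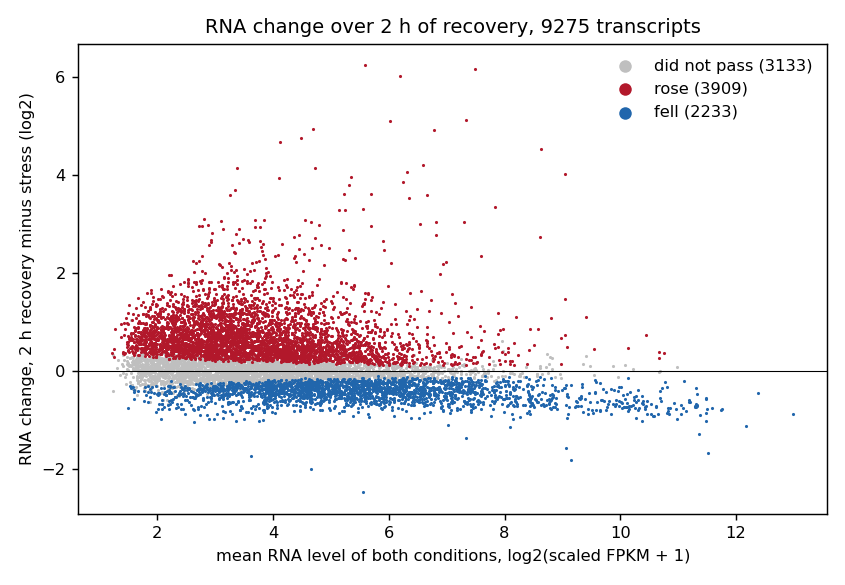
RNA change (log2, 2 h recovery minus stress) against the mean RNA level of both conditions, log2(scaled FPKM + 1), for 9275 transcripts, each a point, coloured by whether it rose (3909), fell (2233) or did not pass (3133). The largest rises reach a log2 change of 6.231, the falls stay mostly within 1 on that scale, and the points at the highest levels lie mostly below 0.

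Transcripts that fell were on the whole the more abundant ones. The 2233 that fell had a median of 46.9 scaled FPKM in stress and 35.4 in recovery, close to their 36.5 in unstressed cells. The 3909 that rose had a median of 7.3 in stress and 13.6 in recovery, against 11.9 in unstressed cells. The transcripts that fell took 71.9% and 73.2% of the summed FPKM of the 2 stress libraries and 57.9% and 57.6% of the recovery libraries, and those that rose went from 12.0% and 11.5% to 23.0% and 23.1%. These sets were chosen by the same change, so their levels describe them and are no separate evidence of it. Sorted by their level in unstressed cells, which the comparison did not use, 373 of the 1665 transcripts above 50 scaled FPKM rose and 910 fell, whereas 1650 of the 3382 between 2 and 10 rose and 351 fell.

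Most of the 874 transcripts at least 2-fold higher in RNA stood lower in stress than before it, which their choice by a low stress value relative to recovery favours. In 765 of them both stress libraries were below both unstressed libraries, against 3964 of all 9275 tested, and in 35 both were above, against 3028. Their median was 9.22 scaled FPKM in unstressed cells, 4.39 in stress and 14.2 in recovery. In recovery 610 of the 874 had both libraries above both unstressed libraries, against 3193 of all tested, and 238 had a mean at least 2-fold above the unstressed mean, against 320. The choice by a high recovery value favours these counts too. The 10 largest rises went much further past the level before stress: their median was 4.4 scaled FPKM in unstressed cells, 1.99 in stress and 134.0 in recovery, all 10 were at least 2-fold above unstressed cells, and their log2 changes ran from 4.518 to 6.231. These 10 transcripts had coding lengths of 107 to 534 codons.

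ENSMUST00000021674, with 381 codons in a transcript of 2108 nt, had the largest rise. Its RNA was at 0.855 and 0.793 scaled FPKM in unstressed cells, 0.397 and 0.147 in stress (19 and 2 reads), and 93.7 and 94.5 in recovery. Both recovery libraries were far above all the others, and the log2 change was 6.231 (SE 0.158, limma adjusted p = 1.83e-14, n = 2). Its footprints were at 1.23 and 0.966 scaled RPKM in unstressed cells, were in neither stress list, and were at 218 and 215 in recovery. A listing at 5 reads in each stress library, the lowest read number in those lists, would make that a 31.6-fold difference.

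ENSMUST00000064795, with 534 codons in 4484 nt, had the next largest rise. Its RNA was at 9.09 and 11.2 scaled FPKM in unstressed cells, 4.01 and 3.9 in stress, and 344 and 363 in recovery, a log2 change of 6.162 (SE 0.104, limma adjusted p = 2.62e-16, n = 2). Its footprints were at 43.4 and 41.9 scaled RPKM in unstressed cells, 24.7 and 19.4 in stress, and 839 and 846 in recovery. The footprint level was 38.7-fold higher in recovery, with an exact 95% interval of 28.9 to 53.1 that covers counting error only. In this transcript the footprint change was the smaller of the 2, and the footprint change less the RNA change was -0.967 on the log2(value + 1) scale.

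The falls of at least 2-fold were few, 16 with all libraries and 30 without replicate 1 of stress, and the largest rested on 1 library. ENSMUST00000098110, of 3339 nt and in no footprint list, was at 2.09 and 5.56 scaled FPKM in unstressed cells, 9.04 and 161 in stress, and 8.92 and 4.29 in recovery. The stress libraries differed widely, and replicate 1 of stress was close to the higher recovery library. The log2 change was -2.476 (SE 0.778, limma adjusted p = 0.0105, n = 2), and without replicate 2 of stress it was -0.472 with an adjusted p of 0.465, where the alternatives gave adjusted p-values from 3.82e-06 to 0.465. ENSMUST00000040153, of 8759 nt and also in no footprint list, was at 8.65 and 11.9 in unstressed cells, 29.4 and 49.8 in stress, and 8.88 in both recovery libraries. Here both stress libraries were above the 4 others, and the log2 change was -1.993 (SE 0.194, limma adjusted p = 1.78e-07, n = 2).

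**Figure D2:**
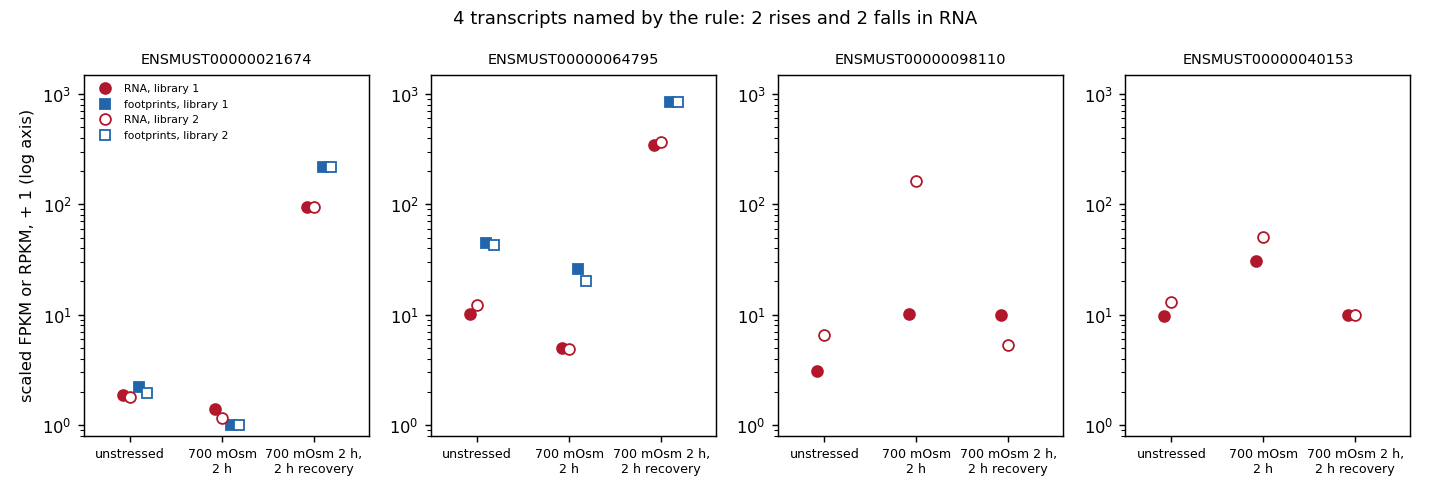
Levels of 4 transcripts in unstressed cells, in stress and in 2 h recovery, as scaled FPKM (RNA, circles) or scaled RPKM (footprints, squares) plus 1 on a log axis, with replicate 1 filled and replicate 2 open; a point at 1 is a transcript not listed. The first 2 panels show the rises of ENSMUST00000021674 and ENSMUST00000064795 in RNA and footprints, and the others 2 falls in RNA, of which ENSMUST00000098110 is high in 1 stress library only.

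More transcripts were listed in the recovery RNA than in either other condition. At an equal depth of 6851958 reads, 14240 and 14311 transcripts would be expected in the recovery libraries, 12427 and 12370 in stress and 12638 and 12552 in unstressed cells. The counts that follow are at the depths as sequenced, which were greater in recovery and favour listings there. In all, 1881 transcripts were in both recovery lists and neither stress list, against 10 the other way round. These were faint RNAs: their median was 10 reads summed over the 2 recovery libraries, 19 reached 1 scaled FPKM, and together they took 0.0475% of the summed values. Of the 1881, 1093 were also in neither unstressed list, and 89 were in a footprint list.

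Footprint levels changed over a wider range than RNA levels. Of 8849 transcripts, 3550 were at least 2-fold higher in recovery (40.1%) and 1343 at least 2-fold lower (15.2%), with a median log2 change of 0.583 and quartiles of -0.482 and 1.732. The SD of the change across transcripts was 1.648 for footprints and 0.627 for RNA. Both recovery libraries lay above both stress libraries in 4991 transcripts (56.4%) and below both in 2631 (29.7%). The split depended on the scaling, which shifted the change by -0.447: the values as deposited gave 4445 higher and 779 lower of 8903. The shallow stress libraries bear on it as well, since 1549 of the 8849 transcripts were in neither stress list and stand at 0 there, and 1254 transcripts differed by 2-fold or more between the 2 stress libraries, against 40 between the recovery pair. Of the 3550 counted as higher, 1526 were in both recovery lists and neither stress list, so that their change was taken from a stress value of 0. If each of the 2502 transcripts so listed, kept or not, had 5 reads in each stress library, 306 of them would be at least 2-fold higher, and their median ratio of recovery to stress would be 0.621.

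The direction was the same in transcripts chosen for depth from the unstressed libraries. A set of 3068 transcripts had at least 100 reads expected in the 2 stress libraries from their share of the unstressed reads, and is called the well-read set below. In it, the 2-fold threshold was passed upward by 1086 (35.4%) and downward by 519 (16.9%), and the median change was 0.444. Among the 6196 transcripts listed in all 4 compared libraries, a rule that leaves out those most reduced in stress, 1423 were higher and 1299 lower and the median was 0.048. That median near 0 was largely set by the scaling, whose factors came from 4619 transcripts listed in all 18 footprint libraries. The near-even split is therefore no separate evidence.

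The largest rises in footprints were of transcripts in neither stress list, and the largest drops of transcripts that were all listed there. Both follow largely from the rules used, since unlisted transcripts were set to 0 and a drop needs a listing in stress. The size of these rises rests on that 0 in shallow libraries. Among those with at least 100 reads over the 4 libraries, the 10 with the largest rise in footprints had 148 to 381 codons, were in neither stress list, and stood at 115 to 291 scaled RPKM in recovery. Their RNA rose in all 10, by log2 changes of 0.415 to 6.231. The 10 with the largest drop in footprints had 60 to 3036 codons, and stood at a median of 108 scaled RPKM in stress, 2.91 in recovery and 5.89 in unstressed cells. Of the 5 of these with RNA tested, 2 rose and 3 fell in RNA, with log2 changes of -1.042 to 0.464. These 20 were chosen by their change, so that the values only describe them.

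At 2 h of recovery both measures were closer to unstressed cells than in stress. The SD across transcripts of the footprint difference from unstressed cells was 1.771 in stress and 0.658 in recovery, and in the well-read set 1.511 and 0.516. At least 2-fold differences from unstressed footprints numbered 1469 higher and 4029 lower in stress, and 343 higher and 632 lower in recovery. For RNA the SD was 0.523 in stress and 0.422 in recovery, a smaller step, and the sides changed over: 22 transcripts were at least 2-fold above unstressed cells in stress and 626 below, against 255 above and 2 below in recovery. These differences share the unstressed libraries, and the step between them was not tested. They were taken on the log2(scaled value + 1) scale, so that counts on the means themselves, as given further above, differ.

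In stress the footprints were also concentrated in fewer transcripts. The 10 highest footprint transcripts of the stress libraries took 14.9% of the summed footprint values in both of them, 7.43% in both recovery libraries, and 6.9% and 6.93% in unstressed cells. For RNA the 10 highest of the stress libraries took 7.83% and 9.22% in stress, 5.51% and 5.33% in recovery and 6.45% and 6.29% in unstressed cells. Their choice by a high stress value favours these differences. The 10 highest of each library itself took 14.9% and 14.88% of the footprint values in stress and 8.01% and 8.0% in recovery. In unstressed cells they took 7.78% and 7.81%. For RNA the same shares were 8.09% and 9.3% in stress, 5.93% and 5.86% in recovery, and 6.78% and 6.64% in unstressed cells. At an equal depth of 734083 reads, counted from 5 reads up, 6624 and 6681 transcripts would be expected in the stress footprint libraries, 8010 and 8000 in recovery and 8312 and 8324 in unstressed cells.

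The share of footprint reads moved from short to long coding sequences. Coding sequences of up to 100 codons took 7.69% and 7.71% of the footprint reads in stress and 3.19% and 3.17% in recovery, against 3.01% in both unstressed libraries. Those of 100 to 200 codons went from 28.9% and 28.7% to 17.98% and 18.01%, with 17.4% in both unstressed libraries. At the other end, coding sequences of 400 to 800 codons went from 26.2% and 26.3% to 33.8% and 33.9%, those of 800 to 1600 from 6.73% and 6.72% to 12.7% in both, and those over 1600 from 2.36% and 2.35% to 3.97% and 3.95%. The class of 200 to 400 codons held 28.1% and 28.2% in stress and 28.3% in both recovery libraries. These shares need no scaling between libraries, and in each class but that of 200 to 400 codons the difference between conditions was many times that between the 2 libraries of a condition. Of the unstressed share, the class of 800 to 1600 codons was the one still furthest off in recovery, at 12.7% against 14.0% and 13.9%.

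RNA reads shifted the same way by less. Coding sequences of 100 to 200 codons took 16.1% and 15.4% of the RNA reads in stress and 13.3% and 13.6% in recovery, and those over 1600 codons 4.92% and 4.95% in stress and 6.1% and 6.13% in recovery. Those of 800 to 1600 codons took 14.1% and 15.9% in stress and 16.7% in both recovery libraries. In that class the stress libraries differed by more than replicate 2 of stress did from recovery. The mean transcript length weighted by abundance was 1708.8 and 1740.5 nt in stress, 2003.8 and 1985.3 nt in recovery, and 2003.1 and 1968.6 nt in unstressed cells. The mean coding length weighted by footprint level was 641.6 and 642.1 nt in stress, 874.2 nt in both recovery libraries, and 893.7 and 893.3 nt in unstressed cells.

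**Figure D3:**
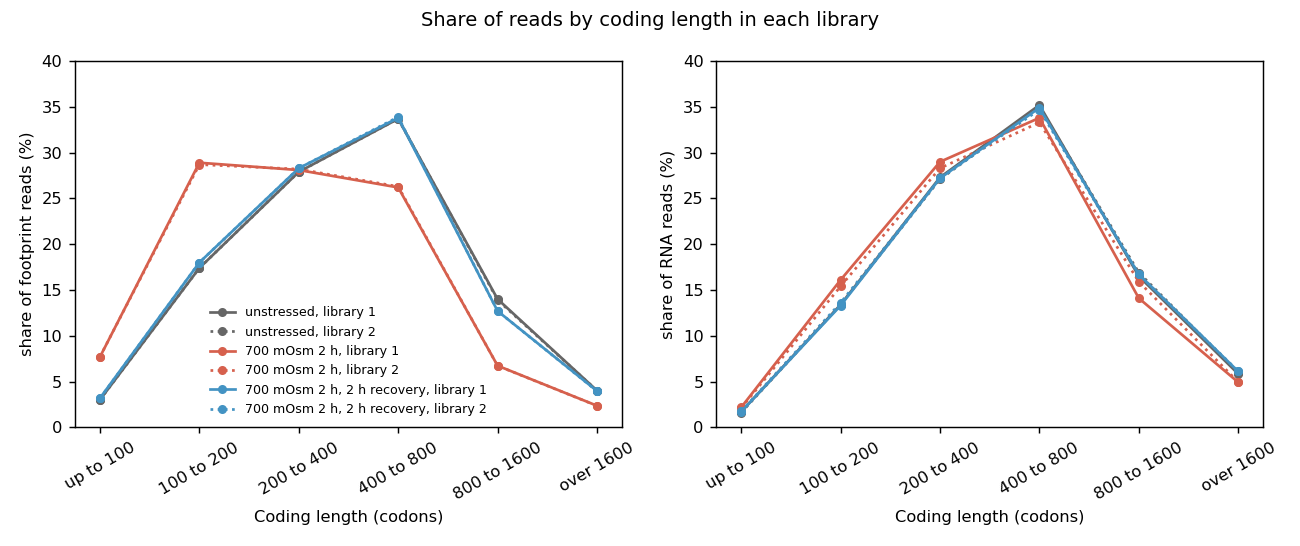
Share of footprint reads (left) and RNA reads (right), in percent, by coding length in codons, 1 line per library, for unstressed cells, stress and 2 h recovery. In footprints the stress lines stand apart, with 28.9% and 28.7% at 100 to 200 codons against 17.98% and 18.01% in recovery, and the recovery lines lie close to the unstressed ones; in RNA the lines differ by much less.

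Per transcript, RNA rises became more frequent with coding length. Of the 179 transcripts of up to 100 codons 32 rose and 87 fell, and of the 1061 of 100 to 200 codons 257 rose and 437 fell. The classes of 200 to 400 and 400 to 800 codons had 850 rises and 785 falls of 2635, and 1488 and 655 of 3271. Of the 1511 transcripts of 800 to 1600 codons 937 rose and 166 fell, and of the 388 over 1600 codons 268 rose and 36 fell, against 42.1% and 24.1% over all. The median RNA change went from -0.222 in the shortest class to 0.508 in the longest. Against unstressed cells the class medians in recovery were between -0.022 and 0.094, while in stress they ran from 0.388 in the shortest class to -0.563 in the longest.

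The median footprint change was lowest for the shortest coding sequences, higher in the middle classes and lower again over 1600 codons. The median was -0.99 for up to 100 codons, with 45 of 180 at least 2-fold higher and 90 lower, and -0.235 for 100 to 200 codons, a value that was above 0, at 0.215, with the values as deposited. It was 0.654 for 200 to 400 codons, though -0.122 among transcripts listed in all 4 libraries, 0.749 for 400 to 800, 0.693 for 800 to 1600 and 0.344 for over 1600 codons. In the well-read set the medians were -1.443, -0.713, 0.392, 0.694, 0.875 and 0.631 in the same order. Only 6 of the 80 well-read transcripts of up to 100 codons were at least 2-fold higher and 53 were lower, while of the 164 over 1600 codons 56 were higher and 6 lower. Against unstressed cells the well-read medians in stress ran from 1.593 in the shortest class to -1.184 at 800 to 1600 codons, and in recovery from 0.041 in the shortest class to -0.228 in the longest.

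The non-coding part of the transcript, its length outside the coding sequence, showed the same order. Where the non-coding part was up to 500 nt, 376 of 2001 RNAs rose and 907 fell, and where it was over 2000 nt, 1648 of 2456 rose and 210 fell. The RNA medians were -0.194 for up to 500 nt, -0.017 for 500 to 1000 nt (0.038 with the values as deposited and 0.021 with no filter on low values), 0.2 for 1000 to 2000 nt and 0.436 for over 2000 nt. The footprint medians were -0.021, 0.458, 0.704 and 0.984. The first of these was above 0, at 0.401, with the values as deposited, at 0.198 with no filter and at 0.029 without replicate 2 of the stress footprints. Transcripts with up to 500 nt took 51.6% of the footprint reads in both stress libraries, 35.6% in both recovery libraries and 34.5% in both unstressed libraries. In RNA they took 34.4% and 33.8% in stress, 26.0% and 26.2% in recovery, and 26.6% and 27.2% in unstressed cells.

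**Figure D4:**
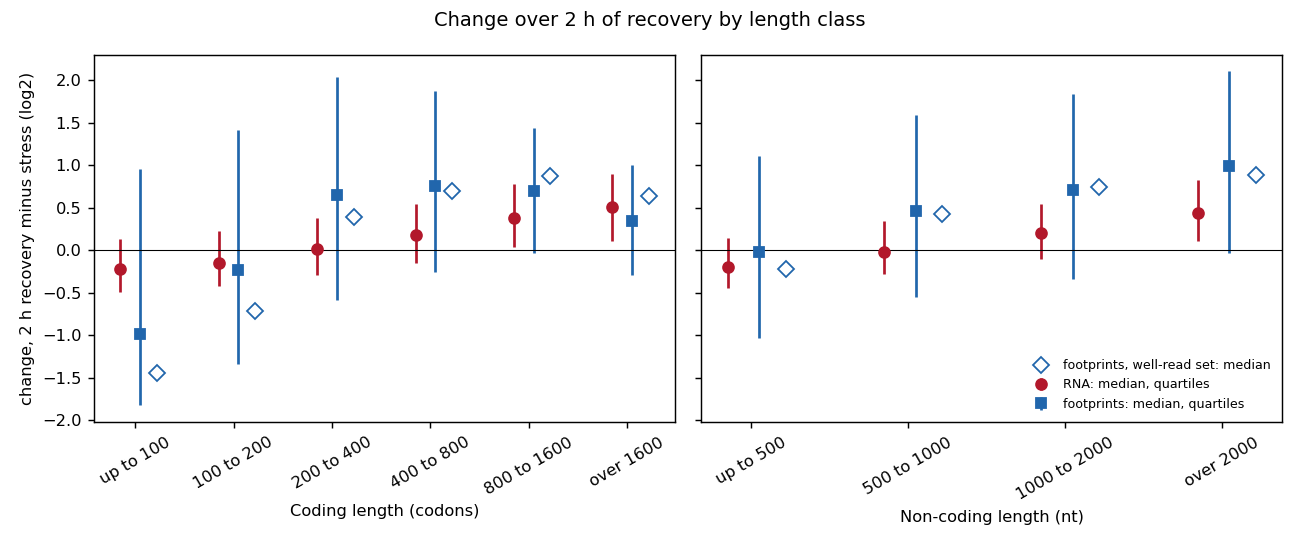
Median change (log2, 2 h recovery minus stress) by coding length in codons (left) and non-coding length in nt (right); circles are RNA and filled squares footprints, with bars from the lower to the upper quartile of transcripts, and open diamonds are footprints in the well-read set. RNA medians climb from -0.222 to 0.508 with coding length and from -0.194 to 0.436 with non-coding length; footprint medians at 100 to 200 codons and up to 500 nt non-coding turn above 0 with the values as deposited, and that at 200 to 400 codons turns below 0 among transcripts listed in all 4 libraries.

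Both lengths went with the RNA change when transcripts were classed by both. Of the 3091 transcripts with over 400 codons and over 1000 nt of non-coding sequence, 1971 rose and 307 fell, with a median of 0.402. Of the 2064 with up to 400 codons and up to 1000 nt, 310 rose and 986 fell, with a median of -0.223. The mixed classes lay between: 828 rose and 323 fell of 1810 with short coding and long non-coding sequence (median 0.171), and 720 rose and 549 fell of 2075 with the reverse (median 0.031). In the well-read set the footprint medians of these 4 classes were 0.944, -0.444, 0.513 and 0.541 in the same order. Level and length are not independent among transcripts, and their separate parts in these differences were not tested.

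Transcripts whose RNA rose were more often higher in footprints as well. Of the 3518 that rose and had footprints, 1943 were at least 2-fold higher in footprints (55.2%) and 142 lower (4.04%), against 39.8% and 14.8% of all 8446 in both assays. Of the 2131 that fell, 404 were higher (19.0%) and 722 lower (33.9%). Among the 778 that were at least 2-fold higher in RNA, 547 were at least 2-fold higher in footprints (70.3%) and 13 lower. Across transcripts the Spearman correlation of the 2 changes was 0.444 (n = 8446) and 0.571 in the well-read set (n = 3067), as a description over transcripts that share libraries and length.

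**Figure D5:**
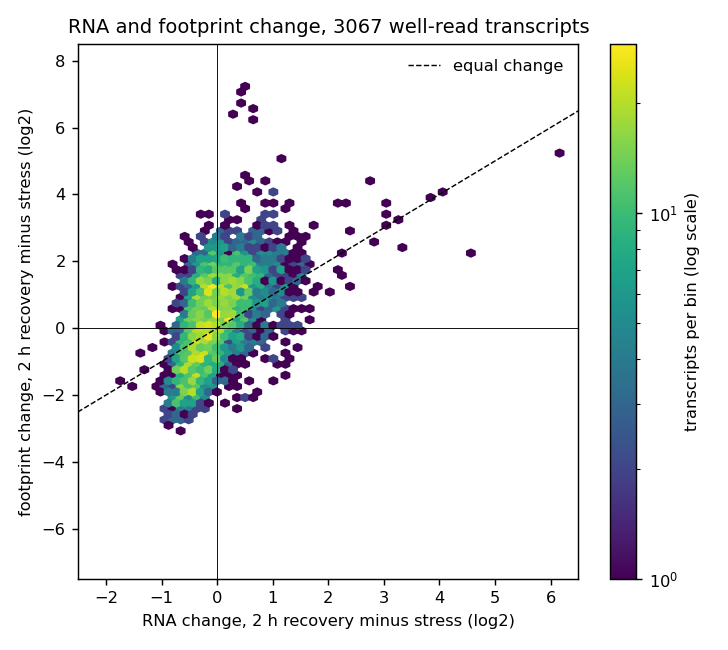
Footprint change against RNA change (both log2, 2 h recovery minus stress) for the 3067 well-read transcripts kept in both assays, as the number of transcripts per bin on a log colour scale; the dashed line marks equal change. Most transcripts spread further along the footprint axis (SD 1.343) than along the RNA axis (SD 0.564), and the Spearman correlation is 0.571.

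Translational efficiency describes footprints per RNA, and its change is the footprint change less that of the RNA. Of 8446 transcripts, 2782 were at least 2-fold higher in recovery (32.9%) and 1241 at least 2-fold lower (14.7%), with a median of 0.325. The values as deposited gave 3472 higher and 664 lower of 8492, and among the 6053 transcripts listed in all 4 footprint libraries 1046 were higher and 1206 lower. The footprint scaling was taken from transcripts listed in every footprint library, which largely sets that last split near even. In the well-read set 895 of 3067 were higher and 397 lower, with a median of 0.333. By coding length the well-read medians were -1.07 for up to 100 codons, -0.494 for 100 to 200, 0.42 for 200 to 400, 0.563 for 400 to 800, 0.483 for 800 to 1600 and 0.211 for over 1600. In the well-read set the short coding sequences were thus lower in recovery also per RNA. Over all transcripts the median was -0.813 for up to 100 codons, with 39 of 173 at least 2-fold higher and 77 lower. For 100 to 200 codons it was -0.163, and 271 of 1037 were higher and 273 lower, a nearly even split. The scaling shifted the footprint change by -0.447 and the RNA change by -0.058, so that the sign of this last median depends on it.

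Transcripts were also sorted by their translational efficiency in unstressed cells into 4 groups of equal size. In the group of highest efficiency the median footprint change was 0.043, with 654 of 2112 at least 2-fold higher and 569 lower. In the next lower group it was 0.557, in the one below that 0.973 with 1038 of 2111 higher and 168 lower, and in the lowest 0.617. RNA rose in 632 and fell in 753 transcripts of the highest group, and rose in 1162 and fell in 344 of the lowest. Against unstressed cells the median footprint difference of the lowest group was -1.115 in stress and -0.464 in recovery, and that of the highest -0.066 and -0.023. In RNA the medians were -0.218 and 0.029 in the lowest group, and 0.054 and -0.027 in the highest. The unstressed footprint and RNA values that made the groups also enter these differences from unstressed cells.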

How the data were processed

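In 9 conditions, 2 libraries of ribosome footprints and 2 of cytoplasmic RNA were sequenced. Per the labels' protocols, the lysis buffer held cycloheximide, ribosome-bearing gradient fractions were pooled and treated with RNase I, and a gel slice of 28 to 30 nt was cut. The authors deposited RPKM values for footprints and FPKM values for RNA, 1 per transcript and library. The submitters' processing notes name cutadapt, Bowtie, STAR and the build GRCm38; versions, annotation and counting: not given in the sources used here.

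Whole reads, lengths and library totals were solved from the deposited values; 100.0% of values were whole within a relative tolerance of 1e-09, largely by construction. Lengths behind footprints were taken as multiples of 3, as coding lengths are. A voom fit on these reads called 3439 rises and 1889 falls. Libraries were scaled by median ratio over 5705 RNA and 4619 footprint transcripts, and those averaging a scaled value of 2 or more were kept. Unlisted transcripts were set to 0. The rule by which a transcript was listed in a footprint file is not given in the sources used here. Of the 1255 transcripts listed in 1 stress footprint library only, 20 had 20 or more reads there. An unlisted transcript may thus have had more than 5 reads. Changes are differences of log2(scaled value + 1). RNA was tested with limma 3.58.1 (R 4.3.3) in a fit of 9 group means to the 18 RNA libraries, with precision weights by group and trended prior variance; tests were two-sided, with a Benjamini-Hochberg adjusted p threshold of 0.05. A permutation of 2 against 2 libraries could not go below 0.333. Footprint pairs were compared by chi-square over transcripts listed in both libraries with at least 40 reads summed over them, then averaged, with no test. Intervals and read numbers cover counting error only: without molecular identifiers, several reads can come from 1 molecule. The RNA labels and file titles of 2 conditions not compared here (short stress with long recovery, long stress with short recovery) differ. These libraries enter only through the spread, the scaling and the filter on low values.

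Conditions, lists, length classes and tests were chosen with earlier results of these data known. By rule, the 2 largest RNA rises and the 2 largest falls were named among transcripts past the threshold whose libraries did not overlap. Gene lists and cell type markers could not be applied without gene names. Alternatives were other scaling, pseudocount (0.25), filters, weights, samples in the fit, a replicate block, voom and leaving out each library; the well-read set and the set listed in all 4 footprint libraries were added after seeing the data. The fit and the read recovery were tested on simulated data.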

Additional observations from a re-analysis of the deposited data

How the results depend on the processing

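Over the RNA alternatives that kept all libraries and the filter on low values, 3439 to 4219 transcripts rose and 1867 to 2269 fell. With no filter 16720 transcripts were tested instead of 9275, of which 5059 rose and 1592 fell. These counts were within 1.5 times the reported ones, but with no filter both were smaller shares of the transcripts tested. Those at least 2-fold higher in RNA numbered 874 to 1184 over all RNA alternatives, with 1072 of the 16720 where there was no filter. The at least 2-fold lower RNAs numbered 27 with a pseudocount of 0.25, 32 with voom on the recovered reads, and 15 to 30 leaving out 1 library each. With the replicate number as a replicate block 3932 rose and 2269 fell. The labels do not say that the numbers pair the samples. The deviations of same-numbered RNA libraries of the compared groups correlated at -0.079 over 9275 transcripts, and over all pairs of groups from -0.307 to 0.308. Such a correlation cannot decide whether the numbers mark a shared batch. For footprints and translational efficiency the values as deposited gave 779 and 664 at least 2-fold lower. The well-read set gave 1086 higher and 519 lower in footprints and 895 higher and 397 lower in efficiency, and the set listed in all 4 libraries 1423 and 1046 higher; both sets hold fewer transcripts. Class medians that changed sign were those of footprints at 100 to 200 codons (0.215 as deposited), at 200 to 400 codons (-0.122 listed in all 4) and at up to 500 nt non-coding (0.401 as deposited, 0.198 with no filter, and -0.045 and 0.029 as the lowest and highest leaving out 1 footprint library each, the latter without replicate 2 of stress), and of RNA at 500 to 1000 nt (0.038 as deposited, 0.021 with no filter). The cause was not tested. The RNA fall of ENSMUST00000098110 missed the threshold with no filter (limma adjusted p = 0.149) and without replicate 2 of recovery (0.096), as well as without replicate 2 of stress (0.465). The depth of the stress footprint libraries limits what can be read of the 2502 transcripts listed in both recovery libraries and neither stress library: at 5 reads in each of the latter, 306 would still be at least 2-fold higher in recovery.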
